A study of Melianthus elongatus with 11 samples.

Results

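Plasma membrane intrinsic proteins, or PIPs, are the aquaporins of the plant plasma membrane. The members here are contigs, transcripts assembled from reads, whose closest Arabidopsis thaliana locus is 1 of 10 listed PIP genes. Of 68651 contigs in the table, 44 had such a locus, and 29 of these were at 10 or more in at least 2 of 11 libraries and are described. They came from 7 loci: PIP1;2 (AT2G45960, 2 contigs), PIP1;4 (AT4G00430, 3), PIP1;5 (AT4G23400, 8), PIP2;1 (AT3G53420, 4), PIP2;2 (AT2G37170, 5), PIP2;7 (AT4G35100, 4) and PIP2;8 (AT2G16850, 3). PIP1;3 (AT1G01620) had 1 contig below that level, and PIP1;1 (AT3G61430) and PIP2;5 (AT3G54820) were not analysed here. Just inside the level were Mm267245 and Mm154685, whose second highest library was at 11.2 and 10.8, and just outside were Mm226279 and Mm295001, at 8.90 and 8.76. The 15 contigs outside reached 13.5 at most. Similar contigs can share reads, which the quantification divides among them, so the split of signal within a locus is uncertain.

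Aquaporins are membrane channels through which water moves down its osmotic gradient, and some also pass small molecules such as carbon dioxide or hydrogen peroxide. PIPs fall into the PIP1 and PIP2 subgroups. In frog oocytes PIP2 proteins usually raise water permeability on their own, while many PIP1 proteins reach the plasma membrane only together with a PIP2. In a nectary, the gland that secretes nectar, water follows the exported sugar out of the cells.

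RNA was taken from leaves and nectaries of Melianthus minor, a shrub with black nectar also known as M. elongatus, from plants kept outdoors in an arboretum, with no treatment or genotype named. The 11 libraries are grouped by the first character of their library name: code 2 (2-A to 2-C), code 1 (1-A to 1-C), code 0 (0-A and 0-B) and code L (L-A to L-C). The labels do not explain these codes. The filed labels call the code 2 libraries secretory nectary, 1-B and 1-C presecretory nectary, 1-A, 0-A and 0-B mature leaf, and the code L libraries postsecretory nectary, and the title of 2-A says presecretory. Nectaries were cut out in the field with some neighbouring tissue, which was taken off later. Whether libraries of 1 code are separate plants is not stated, so the spread behind each p-value may be technical.

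These filed labels go against tissue markers. Contigs of 6 leaf photosynthesis loci summed to 947 to 1024 in code 2, 954 to 1186 in code 1, 1727 and 1460 in code 0 and 17430 to 29994 in code L. In this sum 1-A, 0-A and 0-B, filed as leaf, were far below the libraries filed as postsecretory nectary. LHCB1.3, on the same list, went another way, at 161 and 129 in code 0 against 7.7 to 31.5 in code L. In 2-C it also lay above code L. The other loci of this list were each higher in every code L library than in any other library. Contigs of 4 nectary loci (CRC, SWEET9, CWINV4 and MYB21) summed to 6533 to 9838 in code 2, 4714 to 6140 in code 1, 1768 and 1519 in code 0 and 19.1 to 103 in code L. SWEET9 and MYB21 made up most of these sums in codes 2 and 1, and 2 other loci went another way: CRC was at 94.9 to 498 in code 2, 62.0 to 126 in code 1, 1041 and 1351 in code 0 and 4.91 or less in L, and CWINV4 was at 0.509 to 14.2, 0.280 to 10.0, 58.2 and 38.3, and 15.5 to 23.5 in the same order. No tissue is therefore given to a code, and all comparisons are between codes. Values are the authors' normalised read counts, with column totals of 631454 to 1168305 and lowest in code L. The depth in reads is unknown. Whether values were corrected for contig length is not stated, so levels are compared between libraries and not between genes.

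The summed signal of all 44 PIP contigs was 5443, 7632 and 5551 in 2-A, 2-B and 2-C, and 8220, 6591 and 8903 in 1-A, 1-B and 1-C. It was 5122 and 4254 in 0-A and 0-B and 1649, 1419 and 1521 in the code L libraries. Code L lay below every other library, also as a share of the column total: 0.479% to 0.677% in code 2, 0.658% to 0.762% in code 1, 0.544% and 0.415% in code 0, and 0.166% to 0.257% in code L. These sums are given as a description, with no test. Among the 29 contigs described, the highest code mean was in code 2 for 5, in code 1 for 13, in code 0 for 7 and in code L for 4, and the lowest was in code L for 17. Mm339251 reached 10 in libraries of code 0 only, Mm154685 of code 1 only and Mm267245 of code L only, so these 3 were kept through the code where they are high and had to differ between codes.

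**Figure D1:**
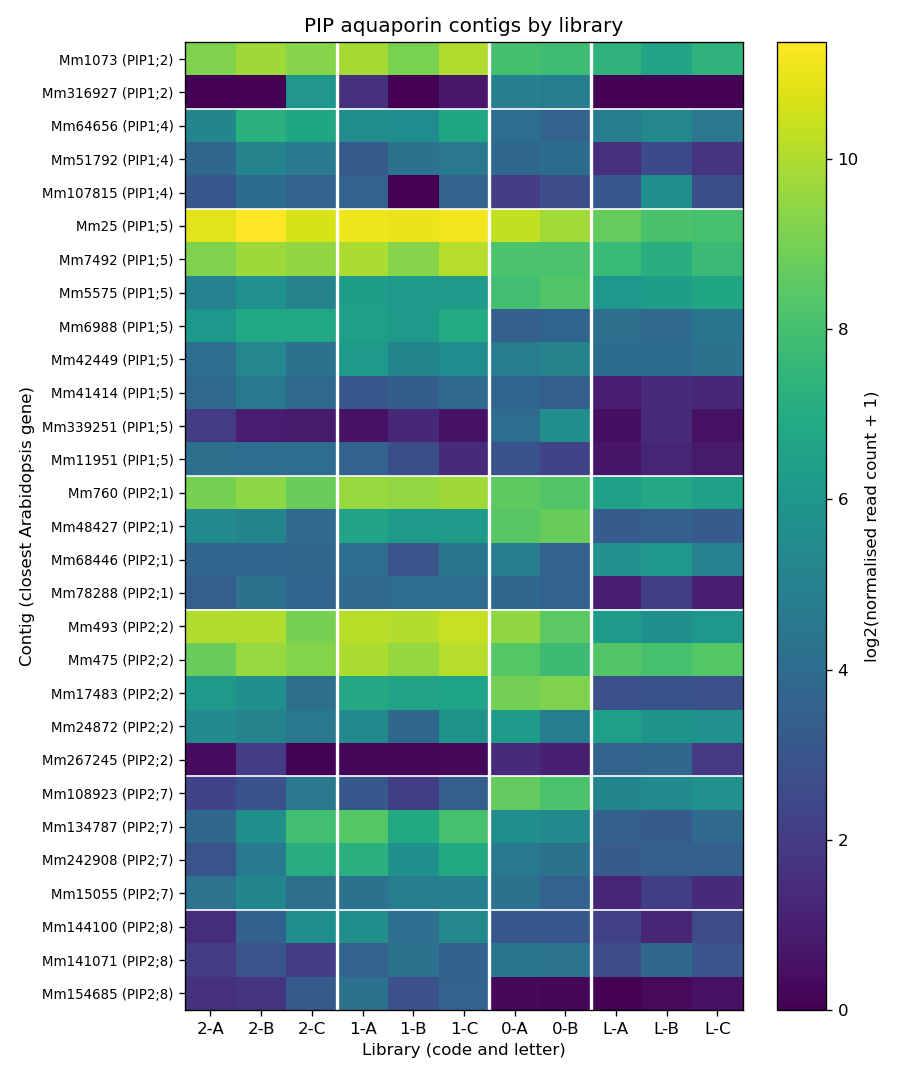
Each row is 1 of the 29 PIP contigs with its closest Arabidopsis gene, each column 1 library, and colour is log2(normalised read count + 1). White lines separate codes and loci. Rows such as Mm25 are bright in codes 2 and 1 and dimmer in code L, while Mm17483, Mm48427, Mm5575 and Mm108923 are brightest in 0-A and 0-B.

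Code 1 was set against code 0 to ask which PIP contigs separate these groups of 3 and 2 libraries. PIP contigs moved in both directions, in 3 loci with a rise and a fall among contigs of the same locus, here called sisters. Mm475 and Mm493, both like PIP2;2, a water channel of root cells in Arabidopsis, rose, while their sister Mm17483 fell. The test was limma on log2(value + 1) over all 26053 contigs at that level, and a contig was called where the Benjamini-Hochberg adjusted p was under 0.05 and the log2 difference at least 1 in size. Of the 29, 8 rose, 5 fell and 16 were not called. Over all contigs 25.8% were called, 13.6% higher and 12.2% lower, so the PIP share of 44.8% of contigs was above this background. That share counts Mm339251 and Mm154685, kept through code 0 or code 1 alone, and counts sisters as separate members. Summed by locus, 1 of 7 PIP loci was called, against 22.2% of all loci, as given below. Of the 13 PIP1 contigs 4 rose and 2 fell, and of the 16 PIP2 contigs 4 rose and 3 fell. The median log2 difference was 0.35 over the 29 and 0.10 over all contigs.

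Mm17483 was at 115, 98.9 and 97.1 in 1-A, 1-B and 1-C, against 516 and 582 in 0-A and 0-B, a log2 difference of -2.39 (SE 0.44, limma, adjusted p = 0.00214). Mm48427, like PIP2;1, a gene that acts in guard cells and emerging lateral roots of Arabidopsis, was at 97.6, 73.3 and 72.7 in code 1, against 340 and 428 in code 0 (-2.23, SE 0.37, limma, adjusted p = 0.00126). In both, every code 0 library stood above every code 1 library, and 1-A, filed as leaf, stood with 1-B and 1-C. Mm108923, like PIP2;7, had the lowest difference of the 29: it was at 7.70, 3.30 and 9.87 in code 1, against 396 and 279 in code 0 (-5.49, SE 0.59, limma, adjusted p = 8.44e-05). Among the contigs like PIP1;5, Mm5575 was at 81.8, 68.7 and 74.1 in code 1, against 244 and 311 in code 0 (-1.87, SE 0.29, limma, adjusted p = 9.16e-04). Mm339251 averaged 0.780 ± 0.518 in code 1 (SD, n = 3) and 31.8 ± 22.8 in code 0 (SD, n = 2), a log2 difference of -4.04. Of these falls, Mm17483, Mm48427, Mm108923 and Mm5575 were still called whichever of the 11 libraries was left out. Mm339251 was kept through code 0 alone, so its call is fixed in part by that choice. All 13 calls, rises included, were lost when libraries were grouped by filed tissue and stage, which moves 1-A into the leaf group. With that grouping 0 of all 26053 contigs were called by limma (6 of the 29 PIP contigs at an unadjusted p under 0.05), so the loss is not particular to PIP contigs.

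On the other side, Mm6988, also like PIP1;5, was at 83.9, 72.6 and 124 in 1-A, 1-B and 1-C, against 10.3 and 11.8 in 0-A and 0-B (log2 difference 2.94, SE 0.31, limma, adjusted p = 8.31e-05). Mm154685, like PIP2;8, was at 18.0, 6.03 and 10.8 in code 1, against 0.188 and 0.126 in code 0 (3.33, SE 0.56), the largest rise, with code 0 near 0. Mm154685 was kept through code 1 alone, so its call is fixed in part by that choice. Mm64656, like PIP1;4, which carries hydrogen peroxide into cells in Arabidopsis immunity, was at 47.0, 44.7 and 104 in code 1, against 16.1 and 11.2 in code 0 (2.09, SE 0.55, limma, adjusted p = 0.0160). No library of code 0 reached the lowest of code 1 in these 3 contigs. Mm1073, like PIP1;2, a channel also linked to carbon dioxide transport in Arabidopsis leaves, averaged 837 ± 259 in code 1 (SD, n = 3) and 244 ± 25.6 in code 0 (SD, n = 2), a rise of 1.73 (SE 0.37). Mm7492 (like PIP1;5) rose by 1.62, Mm475 by 1.81, Mm760 (a sister of Mm48427) by 1.21 and Mm493 by 1.22. Mm25, the highest PIP contig and a sister of Mm7492, was at 2156, 2115 and 2318 in code 1, against 1273 and 894 in code 0, without overlap, but was not called (1.04, SE 0.38, limma, adjusted p = 0.0633). Without 0-B the rises of Mm1073 (1.62), Mm760 (1.09), Mm475 (1.52), Mm493 (0.74) and Mm64656 (1.85) were no longer called. The call of Mm64656 was also lost without 0-A (2.34) or 1-C (1.70), and that of Mm493 without any single library of codes 1 and L (1.13 to 1.28), with a pseudocount of 0.1 (1.22) and at equal totals (1.07).

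**Figure D2:**
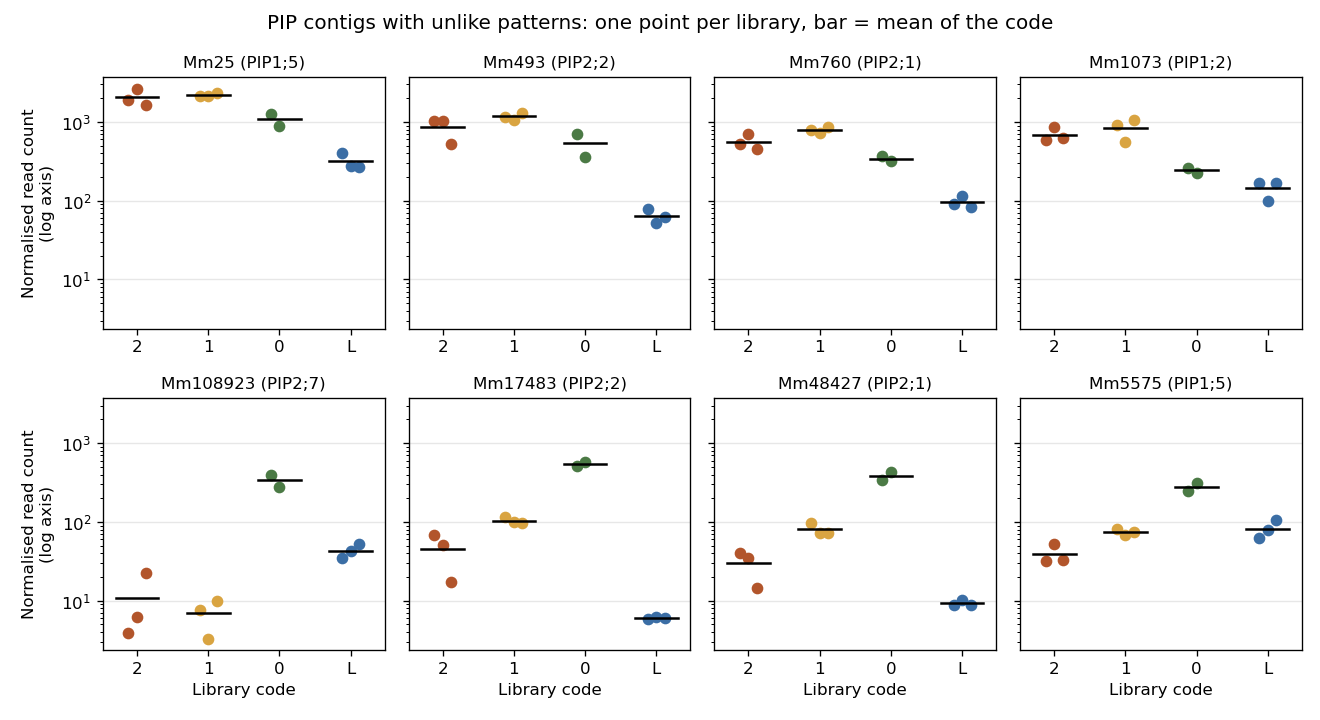
One point per library and a bar for the code mean, on a log axis of normalised read counts, for 4 contigs high in codes 2 and 1 (top) and 4 that peak in code 0 (bottom). Mm17483 sits at no more than 115 in codes 2 and 1 and at 516 and 582 in code 0, while Mm493 of the same locus is at 531 to 1316 in codes 2 and 1 and at 704 and 361 in code 0.

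Contigs of 1 locus parted. Of the 6 PIP loci with at least 3 contigs described, 3 (PIP1;5, PIP2;1 and PIP2;2) held both a contig that rose and one that fell in code 1 against code 0. Among all 3152 loci with at least 3 contigs kept, 10.1% did. Without 0-B the count was 1 of 6 (PIP1;5), against 4.00%, since the rises of Mm760, Mm475 and Mm493 were not called. Mm48427 made up 10.7%, 8.86% and 7.43% of the summed PIP2;1 signal in 1-A, 1-B and 1-C, against 45.2% and 55.9% in 0-A and 0-B. Mm17483 made up 3.78% to 5.06% of the PIP2;2 signal in code 1 and 31.7% and 48.9% in code 0. For Mm108923 the share of PIP2;7 was 1.52% to 2.31% in code 1 and 80.3% and 76.9% in code 0. The share of each of these 3 contigs was thus larger in both code 0 libraries than in any code 1 library. The locus sums differed less: PIP2;1 summed to 912, 827 and 979 in code 1 and 752 and 766 in code 0. With contigs summed by locus and limma run over 12123 loci, PIP2;1 (log2 difference 0.25, SE 0.26, limma, adjusted p = 0.512), PIP2;2 (0.70, SE 0.28, adjusted p = 0.0800) and PIP2;7 (-0.26, SE 0.69, adjusted p = 0.814) were not called. PIP1;2 was called, at 1.57 (SE 0.33, limma, adjusted p = 0.00434), and was the only 1 of 7 loci called, against 22.2% of all 12123 loci. PIP1;4 (1.33, limma, adjusted p = 0.0859) and PIP2;8 (1.06, limma, adjusted p = 0.195) were not called. PIP1;5 (0.93, SE 0.27, limma, adjusted p = 0.0241) missed a call only through the size threshold of 1.

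**Figure D3:**
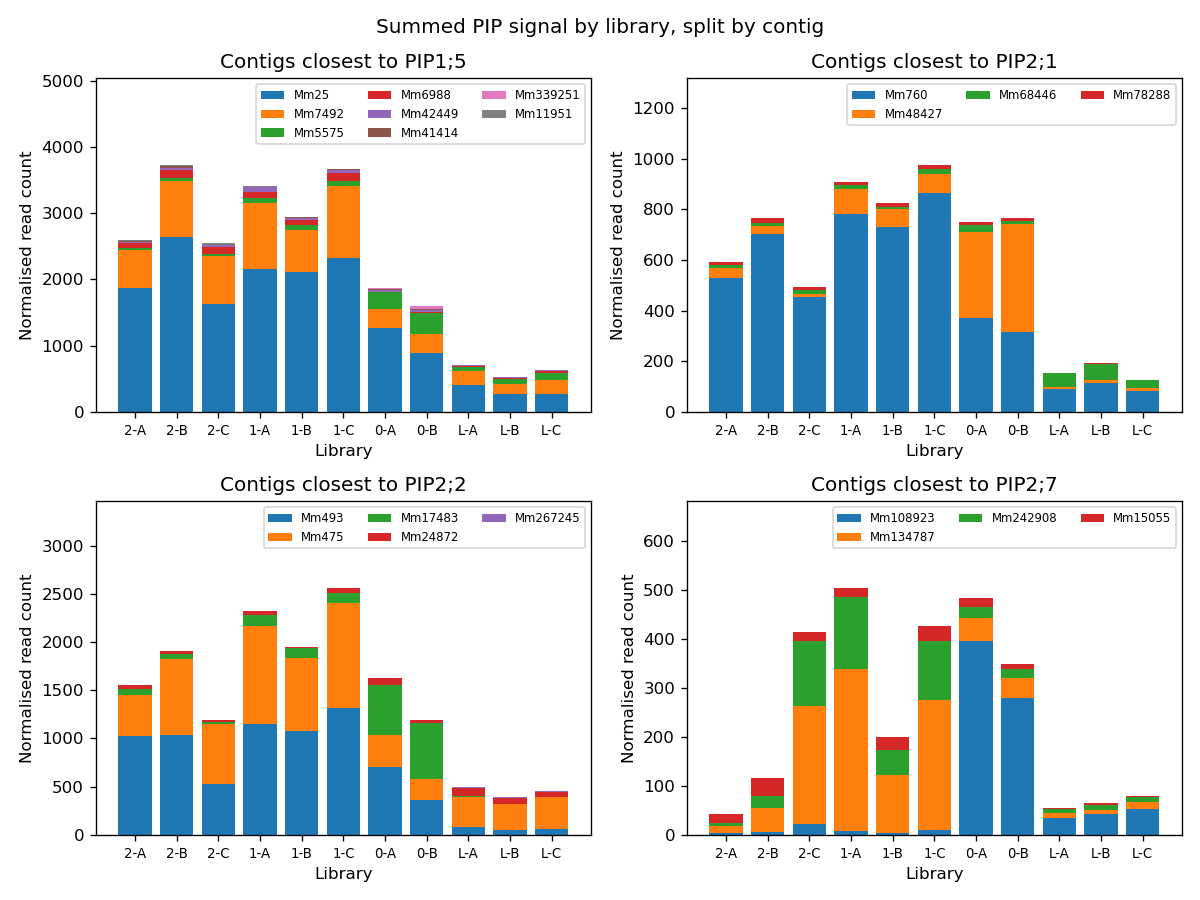
Stacked bars give the normalised read count of each contig kept, by library, for 4 loci. In the locus of Mm760 the bars of 0-A and 0-B (sums of 752 and 766) lie within the range of codes 2 and 1 (493 to 979), while the Mm48427 segment is 14.5 to 97.6 in codes 2 and 1 and 340 and 428 in code 0.

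Summed markers of other cell types moved with code 0. Contigs of 4 guard cell loci, of which 3 had a contig, summed to 6.97 to 7.89 in code 1, against 50.2 and 109 in code 0. FAMA was at 0 to 0.370 in code 1 and at 34.6 and 75.9 in code 0. MYB60 was at 4.77 to 6.14 in code 1 and at 15.2 and 29.8 in code 0. KAT1, on the same list, overlapped, at 1.67 to 2.91 in code 1 against 0.404 and 3.76 in code 0. Contigs of 6 vascular loci, all with a contig, summed to 95.8 to 99.8 in code 1, against 212 and 170 in code 0, and SEOR1 was at 0.160 to 0.394 in code 1 against 15.3 and 10.8 in code 0. SUC2, on the same list, went the other way, at 5.16 to 7.74 in code 1 against 1.21 and 1.19 in code 0. In code 2 the guard cell loci summed to 12.1 to 18.8 and the vascular loci to 78.8 to 139, also below code 0. There SUC2 (7.57 to 12.0) was above code 0 and XCP1 (7.31 to 15.6) overlapped it (13.5 and 15.0). MYB60 (7.86 to 18.3) and KAT1 (0.214 to 3.93) in code 2 also overlapped code 0. The part of these cells in the PIP differences was not tested. In bulk samples fewer cells of a type and less RNA per cell cannot be told apart.

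Code 2 was set against code 0 in the same way, and it shares the 2 code 0 libraries with the comparison above. Here 6 of the 29 PIP contigs rose and 6 fell (41.4%), against 24.0% of all contigs called, 11.5% higher and 12.5% lower. The median was 0.48 over the 29 and 0.05 over all contigs. Mm17483 was at 67.6, 50.9 and 17.5 in code 2, against 516 and 582 in 0-A and 0-B (log2 difference -3.76, SE 0.44, limma, adjusted p = 1.49e-04). Mm108923 was at 3.91, 6.26 and 22.5 in code 2, against 396 and 279 in code 0 (-5.15, SE 0.59). Every code 2 library lay below both code 0 libraries in these contigs. Mm48427, Mm339251, Mm5575 and Mm141071 (like PIP2;8) fell too, with log2 differences of -3.75, -3.60, -2.82 and -2.05. The falls other than that of Mm339251, kept through code 0 alone, were still called whichever library was left out. All 12 calls were lost with the filed grouping, as was each call among all contigs (9 of the 29 at an unadjusted p under 0.05).

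Of the rises, Mm6988 was at 65.5, 113 and 113 in 2-A, 2-B and 2-C, against 10.3 and 11.8 in code 0 (2.99, SE 0.31, limma, adjusted p = 8.86e-05), and it was called whichever library was left out. Mm64656 averaged 97.3 ± 58.1 in code 2 (SD, n = 3) and 13.6 ± 3.47 in code 0 (SD, n = 2), a log2 difference of 2.55. Mm1073 rose by 1.48, Mm7492 by 1.29, Mm475 by 1.13 and Mm154685 by 1.99. Without 0-B the rises of Mm1073 (1.38), Mm7492 (1.29), Mm475 (0.84), Mm154685 (1.96) and Mm64656 (2.30) were not called. Without 0-A, Mm1073 (1.59), Mm7492 (1.29), Mm475 (1.43) and Mm154685 (2.03) were not called, and Mm475 was also lost without 2-B (0.93), 1-A (1.13) or L-A (1.13) and with the library letter as a replicate block (1.07). With codes 2 and 0 fitted alone, Mm7492, Mm154685, Mm475 and Mm64656 were not called, nor was Mm154685 with a pseudocount of 5 (0.78), or Mm475 with a pseudocount of 0.1 (1.14) or at equal totals (0.99). Summed by locus, PIP1;2 (1.37, limma, adjusted p = 0.00964) and PIP1;4 (1.78, limma, adjusted p = 0.0265) rose, and the other 5 loci were not called. Of all 12123 loci 22.7% were called. Of the 6 loci with at least 3 contigs described, 3 (PIP1;5, PIP2;2 and PIP2;8) had calls both ways, against 7.30% of such loci in all. Without 0-A or without 0-B it was 1 of 6 (PIP1;5), against 2.98% each, and with codes 2 and 0 fitted alone 1 of 6, against 3.68%.

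**Figure D4:**
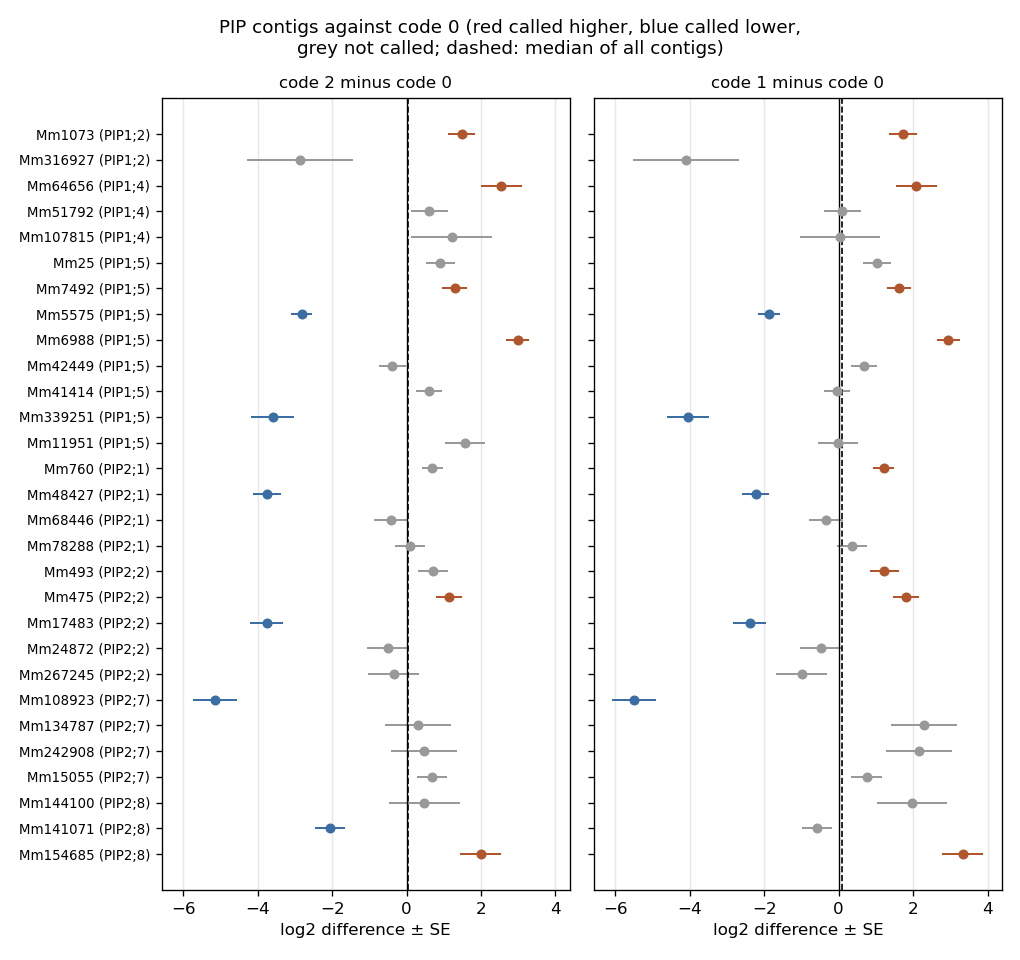
Log2 differences with their SE for the 29 PIP contigs, code 2 minus code 0 on the left and code 1 minus code 0 on the right. Red points were called higher, blue lower and grey not called, and the dashed line is the median of all contigs. Blue and red points stand within the same locus, for example Mm17483 and Mm475.

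Between code 2 and code 1 few contigs of any kind were called. By limma 0 of the 29 PIP contigs were called (8 at an unadjusted p under 0.05), against 1.17% of all contigs, 0.184% higher and 0.983% lower. No PIP locus had calls both ways, against 0.0635% of loci with at least 3 contigs kept. The PIP contig nearest to a call was Mm48427, at 40.6, 34.4 and 14.5 in 2-A, 2-B and 2-C, against 97.6, 73.3 and 72.7 in 1-A, 1-B and 1-C (log2 difference -1.52, SE 0.33, limma, adjusted p = 0.0606). Its libraries did not overlap. With 4 other settings some PIP contigs were called, each lower in code 2: 6 with library weights (4.99% of all contigs called lower), 4 without 2-B (2.24%), 5 without 2-C (3.57%) and 1 (Mm48427) with a pseudocount of 5 (1.27%). Mm25 was at 1873, 2646 and 1629 in code 2, against 2156, 2115 and 2318 in code 1 (-0.13, SE 0.34), with overlap. Pollen and tapetum markers summed to 58.1 to 119 in code 2 and 96.9 to 234 in code 1. AGP6 (37.9 to 66.6 against 77.5 to 214) and CYP704B1 (3.3 to 3.89 against 4.38 to 5.01) were lower in code 2. MS2 (12.8 to 42.8 against 10.6 to 13.1) and LAP6 (2.52 to 5.63 against 2.38 to 4.39) overlapped. The part of these markers was not tested.

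Some contigs like PIP2;7 and PIP2;8 varied widely within code 2. Mm134787, like PIP2;7, was at 13.2, 48.7 and 241 in 2-A, 2-B and 2-C, against 331, 119 and 266 in 1-A, 1-B and 1-C and 46.8 and 41.0 in 0-A and 0-B. Mm242908, of the same locus, was at 6.84, 24.9 and 133 in code 2, against 147, 51.6 and 120 in code 1. Mm144100, a sister of Mm154685, was at 1.77, 10.6 and 49.5 in code 2, against 47.6, 16.9 and 40.1 in code 1. In all 3, 2-C lay within the range of code 1 or above it, and 2-A and 2-B below it, so the code 2 libraries did not form 1 level. Without 2-C these 3 contigs were called lower in code 2, at log2 differences of -3.05, -2.78 and -2.54.

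Codes 2, 1 and 0 were each compared with code L, and these comparisons share the 3 code L libraries. Most PIP contigs were higher than in code L, as were most contigs of any kind. In code 2, 16 of the 29 rose and 4 fell (20 called), against 67.5% of all contigs called, 52.4% higher and 15.1% lower. In code 1, 19 rose and 3 fell (22 called), against 68.8%, 54.4% higher and 14.4% lower. In code 0, 15 rose and 2 fell (17 called), against 62.8%, 49.4% higher and 13.3% lower. On this deposited scale the PIP counts are near the background shares. Calls both ways within 1 locus were found in 4, 3 and 2 of the 6 PIP loci in codes 2, 1 and 0. Of loci in all, 17.0%, 17.6% and 14.0% held such calls. PIP2;2 counted in each code, with Mm267245 as its only fall. That contig was kept through code L alone, so this is fixed in part by that choice. The PIP count varied with the setting. In code 2 it ran from 2 with the filed grouping (14.4% of loci in all) to 5 at equal totals (18.6%). In code 1 it ran from 2 with the filed grouping (13.2%) to 4 with median ratio scaling (20.0%). For code 0 it was 0 without 0-B (10.4% of loci in all) or L-B (12.5%), and 1 without 0-A (8.76%) or L-A (13.6%) or with a pseudocount of 0.1 (14.3%).

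The size of these differences depends on scaling. The median of all contigs was 1.18, 1.21 and 1.08 for codes 2, 1 and 0 against L as deposited, 0.66, 0.68 and 0.69 at equal column totals, and 0.29, 0.24 and 0.14 after median ratio scaling. The PIP medians were 1.91, 2.24 and 1.68 as deposited and 0.89, 1.16 and 0.69 after median ratio scaling, above the median of all contigs in each case. After median ratio scaling, 12 PIP contigs rose and 6 fell in code 2 (25.9% and 22.1% of all contigs), 15 and 5 in code 1 (24.5% and 21.9%), and 9 and 5 in code 0 (18.2% and 20.9%). At equal totals 13 and 6 did in code 2 (36.5% and 18.7%), 18 and 4 in code 1 (37.8% and 17.9%), and 14 and 3 in code 0 (35.7% and 16.2%). On these scales the PIP share of rises was above that of all contigs in each code. Against code 0 the median of all contigs was -0.07 in code 2 and -0.02 in code 1 at equal totals. Among PIP contigs there were 5 rises and 6 falls in code 2 (9.89% and 15.1% of all contigs) and 7 and 5 in code 1 (12.1% and 14.6%). The sum of leaf photosynthesis markers, higher in L as given above, moved with these differences, and its part was not tested.

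Mm25 was at 1873, 2646 and 1629 in code 2, 2156, 2115 and 2318 in code 1, and 1273 and 894 in code 0, against 405, 272 and 267 in code L. Its log2 differences from L were 2.70, 2.83 and 1.79 for codes 2, 1 and 0 (limma, adjusted p = 4.67e-05, 3.72e-05 and 0.00194), or 1.52, 1.62 and 0.71 above the median of all contigs. The code 0 call was lost after median ratio scaling (0.71). Mm493 averaged 863 ± 288 in code 2 (SD, n = 3), 1178 ± 125 in code 1 (SD, n = 3) and 532 ± 243 in code 0 (SD, n = 2), against 63.5 ± 13.0 in code L (SD, n = 3). It rose by 3.70, 4.20 and 2.99 in codes 2, 1 and 0, and these calls were lost in none of the alternatives fitted by contig. Mm760 rose by 2.51, 3.03 and 1.82, and the code 0 call was lost after median ratio scaling (0.75). Mm1073 rose by 2.27 and 2.51 in codes 2 and 1, and in code 0, at 262 and 226 against 169, 97.8 and 167, it was not called (0.79, limma, adjusted p = 0.0789). Mm7492 and Mm6988 likewise rose in codes 2 and 1 (1.91 and 2.24 for Mm7492, with the code 2 call lost after median ratio scaling at 0.89, and 2.35 and 2.30 for Mm6988) and were not called in code 0. Mm475 was called in code 1 (1.64, lost after median ratio scaling at 0.55) and not in codes 2 and 0 (0.96 and -0.17). Mm134787 rose by 4.21 in code 1 and by 2.22 in code 2, the code 2 call being lost without 2-C (1.16), L-A (2.18) or L-B (2.09), and with both scalings (1.66 at equal totals, 1.26 by median ratio).

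Mm17483 and Mm48427, of different loci, were again highest in code 0. Mm17483 was at 516 and 582 in code 0, against 5.78, 6.23 and 5.98 in code L. It rose by 2.53 in code 2, by 3.90 in code 1 and by 6.29 in code 0 (SE 0.44, limma, adjusted p = 3.07e-06). Mm48427 rose by 1.46 in code 2, by 2.98 in code 1 and by 5.22 in code 0, and the code 2 call was lost with equal totals (0.90) and with median ratio scaling (0.51). Mm108923 took another course: at 34.5, 42.6 and 52.9 in code L, it was called lower in codes 2 and 1 (log2 differences -2.21 and -2.56) and higher in code 0 (2.93). Its order was thus code 0, then L, then codes 2 and 1, which overlapped. Mm316927, a sister of Mm1073, was at 0, 0 and 60.7 in code 2, 1.86, 0 and 0.641 in code 1 and 29.8 and 26.0 in code 0, and was listed at 0 in all 3 code L libraries. Its code 0 call against L was lost without either code 0 library. Summed by locus, PIP2;1 rose by 1.96, 2.53 and 2.28 in codes 2, 1 and 0 (limma, adjusted p = 1.42e-05, 2.60e-06 and 2.07e-05) on the deposited scale.

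A few PIP contigs were highest in code L. Mm68446, a sister of Mm760, was at 12.2, 11.8 and 13.3 in code 2, 15.5, 7.08 and 20.6 in code 1 and 26.0 and 10.9 in code 0, against 53.3, 63.9 and 31.9 in code L. Its log2 differences were -1.86 in code 2 (limma, adjusted p = 0.00190), -1.78 in code 1 (adjusted p = 0.00253) and -1.44 in code 0 (adjusted p = 0.0171), and the code 0 call was lost without 0-B (-0.85) or L-B (-1.24). Mm267245, a sister of Mm493, was at 3.18 or less in codes 2, 1 and 0, against 11.2, 13.5 and 2.78 in L. It was kept through code L alone and so had to be higher there. Its differences are given as a description, and its calls are fixed in part by that choice. Its log2 differences were -2.29, -2.93 and -1.94 in codes 2, 1 and 0, and the code 0 call was lost without 0-A (-2.11), 0-B (-1.77), L-A (-1.70) or L-B (-1.58). Mm24872, of the same locus, had its highest mean in L (66.3) and was called in none of the 6 comparisons. Mm5575 was lower in code 2 than in L (log2 difference -1.06), a call lost without 2-A (-0.93), 2-C (-0.96) or L-C (-0.87). The contig like PIP1;3 (Mm267682), below the level for testing, was at 0.166 or less in codes 2, 1 and 0 and at 4.85, 5.44 and 5.64 in L.

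**Figure D5:**
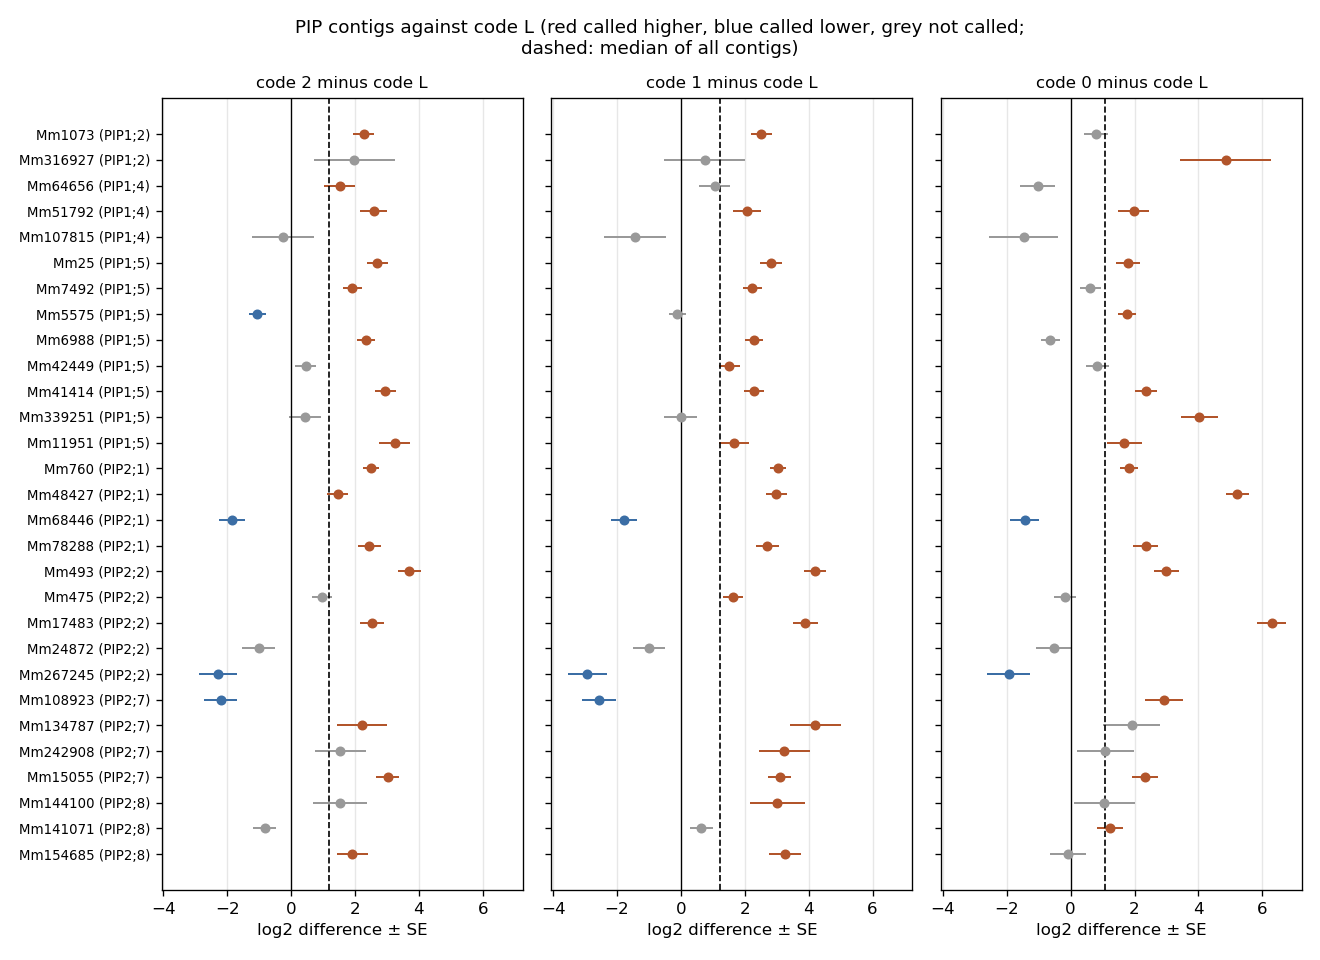
Log2 differences with their SE for the 29 PIP contigs in codes 2, 1 and 0, each minus code L. Red points were called higher, blue lower and grey not called, and the dashed line is the median of all contigs (1.18, 1.21 and 1.08). Mm17483 and Mm48427 stand farthest right in code 0, at 6.29 and 5.22, and Mm108923 stands right of 0 in code 0 and left of it in codes 2 and 1.

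The contigs not yet described were low, with highest values of 17.5 to 69.2. Among the sisters of Mm25, Mm42449, Mm41414 and Mm11951 were not called in either comparison with code 0, and Mm11951 was at 17.5, 16.3 and 15.9 in code 2, against 0.615, 1.25 and 0.770 in L (3.24, SE 0.48). Among the sisters of Mm64656, Mm51792 was at 13.0, 32.9 and 25.6 in code 2, against 1.96, 4.94 and 2.33 in L (2.58, SE 0.43), and Mm107815 was called in none of the 6 comparisons, with 50.0 in L-B against 7.38 and 5.69 in L-A and L-C. Mm78288 (a sister of Mm760) and Mm15055 (a sister of Mm108923) were called higher than L in codes 2, 1 and 0 and were not called between the other codes. Mm141071 (1.24 in code 0), Mm42449 (1.51 in code 1) and Mm64656 (1.52 in code 2) were called higher than L on the deposited scale and with neither of the other scalings. Mm15055 was at 19.3, 36.5 and 17.6 in code 2, against 1.33, 3.34 and 1.60 in L (3.02, SE 0.36).

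Across the 11 libraries some members had near-identical profiles. Pearson's r of log2(value + 1) was 0.996 for Mm1073 and Mm7492, 0.989 for Mm48427 and Mm17483, and 0.986 for Mm25 and Mm493, pairs from different loci. It was also 0.986 for the sisters Mm134787 and Mm242908, and it was lowest, at -0.841, for Mm6988 and Mm108923. Of contigs outside the family, the 5 most like Mm25 were Mm10008 (AT3G54540, general control non-repressible 4, r = 0.991), Mm16898 (AT4G18960, AGAMOUS, a MADS-box factor of stamens and carpels, r = 0.990), Mm33123 (AT4G24500, a hydroxyproline-rich glycoprotein, r = 0.990), Mm21427 (AT4G14300, an RNA-binding protein, r = 0.989) and Mm6920 (AT5G64670, a ribosomal protein, r = 0.989). Mm16898 was at 193, 241 and 200 in code 2, 195, 156 and 227 in code 1, and 43.8 and 29.9 in code 0, against 1.40, 0.156 and 0.124 in L. All coefficients are over the same 11 libraries and are given as a description.

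Other aquaporins are set beside the PIPs from lists of Arabidopsis loci. TIPs sit in the vacuole membrane. Of 13 TIP contigs from 6 loci, 3 rose and 4 fell in code 1 against code 0 (13.6% and 12.2% of all contigs). The median log2 difference was -0.38, against 0.10 for all contigs. In code 2 against code 0, 3 rose and 6 fell (11.5% and 12.5% of all contigs), with a median of -0.90, against 0.05. In code 2 against code 1, 0 rose and 1 fell by limma (0.184% and 0.983% of all contigs, and 5 of the 13 at an unadjusted p under 0.05). Against code L, on the deposited scale, 8, 10 and 10 rose in codes 2, 1 and 0, where 52.4%, 54.4% and 49.4% of all contigs rose. By limma 0 fell there, against 15.1%, 14.4% and 13.3% of all contigs. In either direction 9, 12 and 10 were at an unadjusted p under 0.05 by limma. Mm145298, like TIP1;3, a TIP of pollen in Arabidopsis, was at 2.56, 9.09 and 2.17 in code 2, 16.0, 8.90 and 7.03 in code 1 and 352 and 356 in code 0, against 0.857, 0.386 and 0.169 in L (code 0 minus L 7.94, SE 0.50). Mm42431, like TIP4;1, also peaked in code 0, at 257 and 273. Mm12562, like TIP2;2, was at 49.2, 178 and 225 in code 2 and 223, 130 and 236 in code 1, against 2.72 and 1.15 in code 0. Both courses seen among PIP contigs, high in code 0 or high in codes 2 and 1, thus occurred among TIP contigs.

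NIPs carry small solutes such as boric acid, and SIPs sit in the endoplasmic reticulum. Of their 17 contigs, 7 rose and 1 fell in code 1 against code 0 (13.6% and 12.2% of all contigs), with a median of 0.40, against 0.10 for all contigs. In code 2 against code 0, 7 rose and 0 fell by limma (11.5% and 12.5% of all contigs, and 9 of the 17 at an unadjusted p under 0.05). The median there was 0.89, against 0.05. In code 2 against code 1, 0 were called by limma (1.17% of all contigs, and 6 of the 17 at an unadjusted p under 0.05). Against L, on the deposited scale, 12 rose and 2 fell in code 2, 12 and 3 in code 1, and 11 and 2 in code 0. Of all contigs 52.4%, 54.4% and 49.4% rose there, and 15.1%, 14.4% and 13.3% fell. The medians were 2.81, 2.87 and 2.14, against 1.18, 1.21 and 1.08. Mm38, like NIP5;1, a boric acid channel in Arabidopsis, was at 1175, 634 and 549 in code 2, 538, 422 and 610 in code 1 and 98.4 and 102 in code 0, against 8.77, 1.42 and 0.889 in L (code 2 minus L 7.71, SE 0.53, limma, adjusted p = 1.10e-06). Mm170 and Mm3556, of the same locus, rose by 5.63 in code 2 and by 5.22 in code 1 against L. Of 3 further PIP loci 1 contig was tested. Mm335758, like PIP2;6, was at 0.810, 0 and 0 in code 2, 0, 0.513 and 0.533 in code 1 and 0 and 0.094 in code 0, against 11.8, 26.3 and 12.6 in L. It was kept through its code L libraries alone and so had to be higher there, and no test of it is given.

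Genes for proteins linked to PIPs in other plants formed the last list. SYP121 and SYP61 are membrane-fusion proteins that deliver PIPs to the plasma membrane. SYP122 was also listed, with no contig analysed here. SIRK1, QSK1, CPK7, OST1 and BAK1 are kinases, RMA1 is a ubiquitin ligase, and TSPO sends a PIP to degradation in Arabidopsis. Of the 34 contigs of the list, 10 rose and 3 fell in code 1 against code 0 (13.6% and 12.2% of all contigs). The median was 0.62, against 0.10 for all contigs. In code 2 against code 0, 6 rose and 2 fell (11.5% and 12.5% of all contigs), with a median of 0.41, against 0.05. By limma 0 were called in code 2 against code 1 (1.17% of all contigs, and 5 of the 34 at an unadjusted p under 0.05). Against L, on the deposited scale, 15 rose and 5 fell in code 2 (median 1.04, against 1.18 for all contigs), 17 and 5 in code 1 (1.16, against 1.21), and 10 and 4 in code 0 (0.26, against 1.08). Of all contigs 52.4%, 54.4% and 49.4% rose there, and 15.1%, 14.4% and 13.3% fell. The SYP121-like Mm39322 was at 96.9, 35.5 and 28.3 in code 2 and 34.8, 41.1 and 23.5 in code 1, against 1.61 or less in code 0 (code 2 minus code 0 4.26, SE 0.55, limma, adjusted p = 2.74e-04). The OST1-like Mm455224 was at 31.5, 18.4 and 20.2 in code 1 and at 22.2 in 2-B, against 0.592 or less in 2-A, 2-C and code 0, and was listed at 0 in L. The BAK1-like Mm79411 was at 4.71 or less in codes 2, 1 and 0, against 22.6, 16.3 and 18.1 in L, and was likewise kept through code L alone. The highest contig of the list, the RMA1-like Mm9114, was at 36.3, 55.1 and 68.9 in code 2, 112, 82.9 and 100 in code 1 and 32.9 and 39.9 in code 0, against 30.0, 23.4 and 25.2 in L.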

How the data were processed

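Per the labels' protocols, total RNA came from an RNAqueous Micro extraction with DNase treatment, and libraries were read as pairs on a NovaSeq instrument. The authors used kallisto 0.46.1, per the submitters' processing notes, which splits reads that match several transcripts. The deposited values, normalised read counts per the file headers, are a normalised signal with 1 column per library. How contigs were built and chosen, and how columns were scaled, is not given in the sources used. They are not whole, so no count model was used, and depth is unknown.

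Contigs at 10 or more in at least 2 of 11 libraries (26053) entered limma 3.58.1 (R 4.3.3) on the log2(value + 1) scale (trended empirical Bayes, 1 mean per code, all 11 libraries, two-sided, Benjamini-Hochberg over all contigs kept). Contigs were called at adjusted p under 0.05 with a log2 difference of 1 or more in size. The pseudocount makes the change of low contigs look smaller. Figures were drawn with matplotlib 3.10.9.

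Members and lists were chosen with earlier results of these data known. Contigs named are the highest of each PIP locus, the 2 largest rises and 2 largest falls without overlap in each comparison, the 5 contigs most like the highest PIP contig, and of other lists the highest and up to 3 with the largest called differences; further members are named to account for all 29 and were chosen after their values were seen, as were the pairs of members with the highest or lowest r. Alternatives were a pseudocount of 0.1 or 5, no filter or a filter of 50, 2 scalings, the 2 codes alone, library weights, the library letter as a block, contigs summed by locus, the filed grouping and each library left out. No sequence is shown, since none was in the files used.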

Additional observations from a re-analysis of the deposited data

How the results depend on the processing

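No call of a described PIP contig changed sign in the 22 alternatives fitted by contig, and 47 of 84 calls were lost in at least 1. With libraries grouped by filed tissue and stage, limma called 0 PIP contigs for code 1 with 0 (13 as reported, and 6 at an unadjusted p under 0.05) and 0 for code 2 with 0 (12 as reported, and 9 at an unadjusted p under 0.05). A filter of 50, which leaves 16 PIP contigs, gave 13 in code 2, 13 in code 1 and 8 in code 0 with L (20, 22 and 17 as reported), against 77.6%, 78.7% and 71.9% of the 6818 contigs tested. Summed by locus, with 7 loci, 2 and 1 were called in codes 2 and 1 with code 0 (22.7% and 22.2% of all loci tested). With L it was 5, 6 and 4 in codes 2, 1 and 0 (63.2%, 63.9% and 61.3%). For code 2 with 1 (0 as reported) the count was 1 with a pseudocount of 5 (1.52% of all contigs) and 6 with library weights (7.35%). Leaving out each library of codes 2, 1 and L gave 11 to 18 for code 1 with 0 (20.0% to 29.1% of all contigs) and 0 to 5 for code 2 with 1 (0% to 5.69%). It gave 11 to 14 for code 2 with 0 (21.3% to 27.7%) and 18 to 22 for code 2 with L (63.1% to 68.4%). For code 1 with L it gave 22 to 23 (64.2% to 70.1%), and for code 0 with L 15 to 19 (57.4% to 64.7%). These ranges leave out the fits without a code 0 library. Without 0-A or 0-B fewer PIP contigs were called in codes 1 and 2 with code 0, as over all contigs. The PIP calls lost there were rises, as given above. Without 0-A or 0-B fewer were called in code 0 with L, again as over all contigs. Where 1 library stood for code 0, it was assumed to vary like the other codes. Without 1-A and 2-A together, chosen after seeing the data, 12 were called in both codes 1 and 2 with code 0 (22.3% and 18.7% of all contigs). For code 2 with 1 it was 0 (0% of all contigs). Against L, 22 were called in code 2 (66.3%), 23 in code 1 (66.8%) and 19 in code 0 (62.5%).

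Libraries of different codes share only a letter: deviations from the code means correlated at -0.13 to 0.24 in 15 same-letter pairs, 8 of them over 0.1. In 30 pairs of other letters they correlated at -0.34 to 0.25, 4 of them over 0.1. Deviations of 0-A and 0-B mirror each other, so their pairs are not separate. With the replicate block the counts were 14 for code 1 with 0 (25.9% of all contigs), 0 for code 2 with 1 (0.956%) and 12 for code 2 with 0 (24.5%). Against L they were 21 in code 2 (68.2%), 22 in code 1 (69.3%) and 18 in code 0 (64.1%). Depth in reads is unknown, so no detection limit can be given for contigs listed at 0. With 2 libraries in code 0, the calls against it rest on a spread pooled over the codes.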

Other observations

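Within code 2, a contig like TIP2;1, a vacuolar aquaporin, and Mm134787 both spread widely. Mm69, the highest contig like TIP2;1, was at 996, 1061 and 68.4 in 2-A, 2-B and 2-C, against 134, 247 and 231 in code 1. Mm134787, a PIP2;7-like contig, had 13.2, 48.7 and 241 in these libraries. With 3 libraries this is given as values.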
